A study of Mus musculus with 6 samples.

Results

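The tricarboxylic acid cycle and the steps that feed pyruvate into it were followed through 31 genes, from the mitochondrial pyruvate carrier to cytosolic malate dehydrogenase and the aspartate transaminases. The genes were chosen by symbol, and all 31 were found among 25509 gene rows and passed the filter on low counts. They were measured in poly-A RNA of peritoneal macrophages from C57BL/6 mice, 3 Tg-ACE libraries (mice that overexpress angiotensin-converting enzyme, labelled JWT) and 3 wild-type (WT) libraries. The cells had been drawn into the peritoneal cavity with thioglycollate, collected on day 4, purified on Percoll and kept after 2 h of adherence. An experiment code divides the libraries differently: replicates 2 and 3 of both genotypes are marked Exp-156b, replicate 1 of both is marked Exp-156, and the meaning of these codes is not stated. The labels used here give neither the promoter or cell type that drives the transgene nor the age of the mice, and they do not say that replicates came from separate mice. The p-values therefore measure the spread between these libraries, which may be partly technical.

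Pyruvate made by glycolysis enters the mitochondrion through the pyruvate carrier, where the pyruvate dehydrogenase complex turns it into acetyl-CoA and pyruvate carboxylase turns it into oxaloacetate. Pyruvate dehydrogenase kinases switch the complex off by phosphorylation and the matching phosphatases switch it back on. Citrate synthase joins acetyl-CoA to oxaloacetate, and the cycle then oxidises citrate back to oxaloacetate while it loads NADH for the respiratory chain. In macrophages the cycle is known for being cut back and redirected, with citrate and succinate built up, when the cells are activated by bacterial products.

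The libraries held 24294258 to 28120394 expected counts each, of which the 31 genes together took between 0.227% and 0.237% of each library. Their counts in a single library ran from 38 for Pcx to 8289 for Idh1. Ace itself, the gene named by the label, stood at 100.6, 25.6 and 31.8 counts-per-million (CPM) in Tg-ACE replicates 1, 2 and 3, against 16.7, 7.60 and 11.6 CPM in WT replicates 1, 2 and 3, so every Tg-ACE library was above every WT library. Libraries separated by experiment code more than by genotype, with 74.6% of the variance of log2 CPM on a first component. The sex of the mice went with the code: Xist stood at 327 to 331 CPM in the Tg-ACE and 431 to 454 CPM in the WT libraries of Exp-156b, and at 0.527 CPM in the Tg-ACE and 0.409 CPM in the WT library of Exp-156. Sex and anything else that differed between the codes cannot be told apart.

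None of the 31 genes passed the test between Tg-ACE and WT macrophages. The log2 fold changes ran from -0.14 for Pdk3 to 0.34 for Pcx, with a median of 0.01 against -0.01 over all 12827 genes tested. They were above 0 for 19 genes and below 0 for 12 (24 and 7 with upper-quartile scaling). In edgeR's quasi-likelihood test, at a Benjamini-Hochberg adjusted p of 0.05, 0 of the 31 were called, where 0% of all genes were called. At an unadjusted p under 0.05 the count was again 0 of 31, against 0.982% of all genes. For 0 of the 31 genes did the 3 Tg-ACE and the 3 WT libraries stand apart without overlap, against 4.91% of all genes. In the same fit by DESeq2, 9 genes of the whole table passed and none of them was among the 31.

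How large a genotype difference the data leave room for depends on whether the experiment code is in the model. With genotype alone the 95% interval of the log2 fold change had a median width of 0.356 on either side, and the widest, that of Pdk1, ran from -1.19 to 0.97. With the code as a further term the median was 0.161, and all 31 intervals contained 0 in both models. Leaving Pcx aside, the bounds with the code in the model reached from -0.39 (Pdk3) to 0.38 (Ogdh). In that model again 0 of 31 genes were called, against 0.0156% of all genes, and 0 of 31 had an unadjusted p under 0.05, against 6.48% of all genes. DESeq2 with the code called 0.288% of all genes and no gene of the 31. In the edgeR fit with the code the smallest unadjusted member p was 0.108, for Aco1. In the Exp-156b libraries alone 1 of 31 was under 0.05, Pdk3 (unadjusted p = 0.0482, adjusted p = 0.476 in edgeR), against 1341 of 12827 genes. With the code and without WT replicate 3 it was again 1 of 31, Ogdh (unadjusted p = 0.0323, adjusted p = 0.92), against 651 of 12827 genes.

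**Figure D1:**
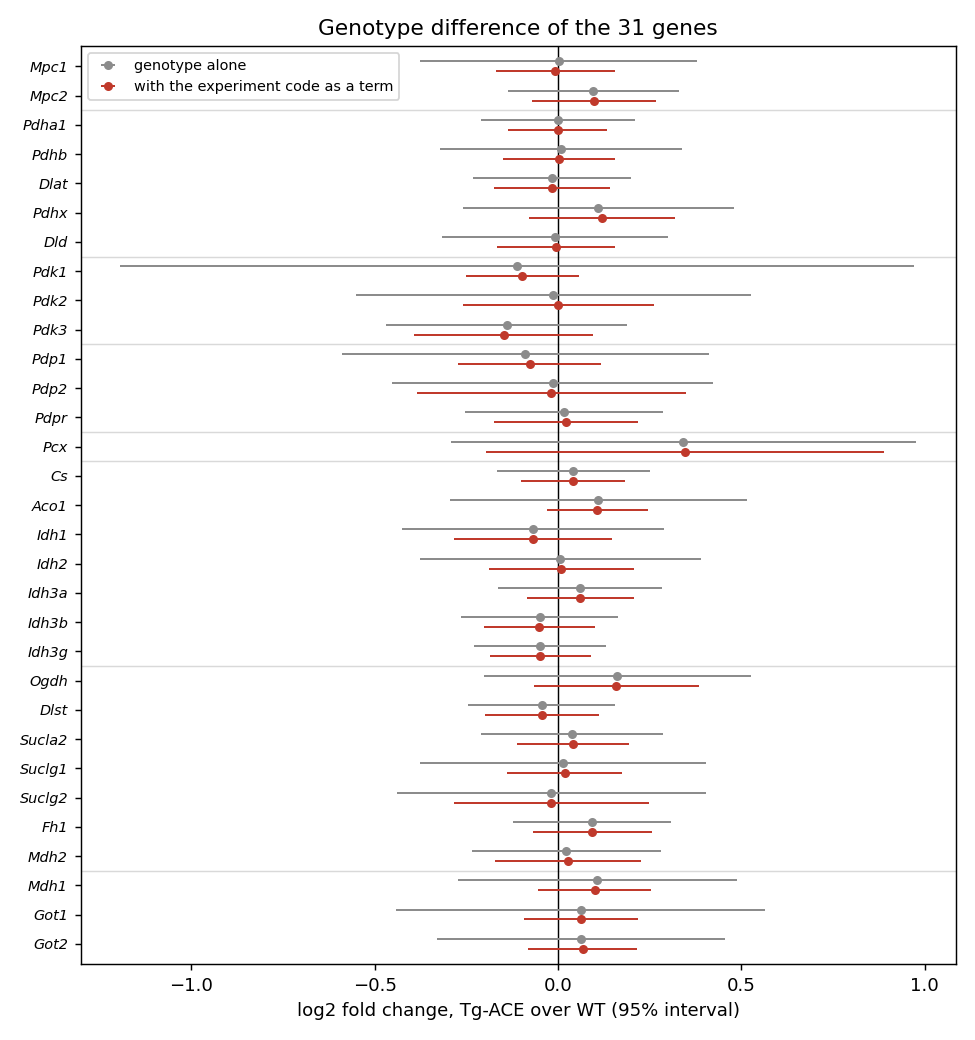
Log2 fold change of Tg-ACE over WT for each of the 31 genes (horizontal axis), fitted with genotype alone and with the experiment code as a further term, with 95% intervals as lines. All 31 intervals contain 0 in both fits, the intervals are narrower with the code in the model, and Pcx has the widest interval in that fit.

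Pyruvate carboxylase had the largest genotype difference of the set and also its lowest level per length. Pcx, which makes oxaloacetate from pyruvate and lies on chromosome 19 at 4510472 to 4621752 of GRCm38, stood at 2.004, 2.27 and 2.51 CPM in Tg-ACE replicates 1, 2 and 3. The WT replicates held 1.55, 1.53 and 2.27 CPM. Tg-ACE replicates 2 and 3 were the highest libraries, WT replicates 1 and 2 the lowest, and WT replicate 3 lay among the Tg-ACE values, so the groups overlapped. The log2 fold change was 0.34 (SE 0.26) and did not pass (unadjusted p = 0.236, adjusted p = 1 in edgeR). The interval with the code in the model, from -0.20 to 0.89, leaves room for a moderate rise as well as for no difference at this depth.

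Other members differed by little between genotypes. Ogdh, the dehydrogenase that gives 2-oxoglutarate dehydrogenase its name, stood at 229, 290.5 and 271 CPM in Tg-ACE replicates 1, 2 and 3, against 213, 217 and 277 CPM in WT replicates 1, 2 and 3. WT replicate 3 was above Tg-ACE replicates 1 and 3, and the log2 fold change was 0.16 (SE 0.15, unadjusted p = 0.318, adjusted p = 1 in edgeR). Fh1, fumarate hydratase, stood at 36.9, 33.8 and 35.1 CPM in the Tg-ACE libraries and at 34.1, 30.6 and 34.3 CPM in the WT libraries. The ranges overlapped through Tg-ACE replicate 2, with a log2 fold change of 0.09 (SE 0.09, unadjusted p = 0.330, adjusted p = 1 in edgeR). Citrate synthase, Cs, the entry enzyme of the cycle, held 155, 166 and 172 CPM in the Tg-ACE libraries and 153, 168 and 158 CPM in the WT libraries, whose ranges overlapped, with a log2 fold change of 0.04 (unadjusted p = 0.646, adjusted p = 1 in edgeR).

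Between the experiment codes the same genes did move, though no more often than the rest of the transcriptome. With genotype in the model, 13 of 31 passed the same edgeR test between the 4 Exp-156b and the 2 Exp-156 libraries, against 42.9% of all genes. Of these 9 rose in Exp-156b, against 20% of all genes, and 4 fell, against 22.9% of all genes. The 4 Exp-156b libraries lay above both Exp-156 libraries for 13 members and below both for 7, where 59.8% of all genes did not overlap. The median log2 fold change was 0.11 for the 31 genes, against a median of -0.00 over all genes. Without Tg-ACE replicate 1, and likewise without WT replicate 1, 8 members passed, and all 13 kept their direction in both cases. DESeq2 called 14 of 31, the same 13 and Ogdh, against 39.9% of all genes. With upper-quartile scaling 13 rose and 3 fell, with Cs, Ogdh, Sucla2 and Idh3a added and Idh2 lost, and 58% of all genes called were then higher in Exp-156b, against 46.5% of those called with the main scaling.

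The largest change was in Pdk1, a kinase that switches pyruvate dehydrogenase off. Of the 3 kinase genes 2 fell, where 22.9% of all genes fell. Pdk1 (chromosome 2, 71873224 to 71903858, forward strand) stood at 25.5 and 27.4 CPM in the Tg-ACE libraries and 28.2 and 27.2 CPM in the WT libraries of Exp-156b. In Exp-156 it stood at 55.7 CPM in the Tg-ACE and 62.0 CPM in the WT library. The 4 Exp-156b libraries lay within 3 CPM of each other and far below both Exp-156 libraries, whatever the genotype. The log2 fold change was -1.12 (SE 0.07, adjusted p = 3.25e-05 in edgeR), a fall to 0.461 times the Exp-156 level. Within the Tg-ACE libraries the difference was -1.07 and within the WT libraries -1.16 on the log2 scale.

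Pdk2 also fell in Exp-156b, and Pdk3 did not pass. Pdk2 stood at 9.48 and 8.55 CPM in the Tg-ACE and 8.31 and 8.79 CPM in the WT libraries of Exp-156b, against 11.6 CPM in the Tg-ACE and 12.8 CPM in the WT library of Exp-156. All 4 Exp-156b libraries were below both others, with a log2 fold change of -0.48 (SE 0.12, adjusted p = 0.0133 in edgeR). The call was lost without WT replicate 1 and in the libraries of either genotype alone. Pdk3 stood at 11.6 and 11.3 CPM in the Tg-ACE and 13.7 and 13.6 CPM in the WT libraries of Exp-156b, against 14.4 CPM in the Tg-ACE and 13.7 CPM in the WT library of Exp-156. The WT libraries thus differed little between the codes, while both Tg-ACE libraries of Exp-156b were the lowest of the 6. The code difference was -0.17 on the log2 scale (adjusted p = 0.238 in edgeR) and the genotype difference -0.14 (SE 0.14, unadjusted p = 0.339, adjusted p = 1). In the Exp-156b libraries alone the genotype difference was -0.26 (unadjusted p = 0.0482, adjusted p = 0.476 in edgeR), against 0.08 in Exp-156. The interaction was -0.34 (SE 0.18). With only 1 library of each genotype in Exp-156, it cannot decide whether the genotype difference depended on the code. Pdk4, the kinase linked to fasting, was listed at between 0 and 0.281 CPM and was too low to test.

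The promoters of the 3 kinases are shown because these genes, which act on the same enzyme, differed in how far they moved. Each line gives the 250 bases before the transcription start in RefSeq on GRCm38.p6, read 5′ to 3′ along the gene, with every match to ACGTG or GCGTG on either strand in capitals, letters that hold the core of the hypoxia response element.
Pdk1: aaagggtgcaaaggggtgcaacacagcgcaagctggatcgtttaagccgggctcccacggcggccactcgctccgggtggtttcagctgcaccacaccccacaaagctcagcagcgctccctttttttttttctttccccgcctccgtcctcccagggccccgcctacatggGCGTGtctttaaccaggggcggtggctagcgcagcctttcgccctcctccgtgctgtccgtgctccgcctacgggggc
Pdk2: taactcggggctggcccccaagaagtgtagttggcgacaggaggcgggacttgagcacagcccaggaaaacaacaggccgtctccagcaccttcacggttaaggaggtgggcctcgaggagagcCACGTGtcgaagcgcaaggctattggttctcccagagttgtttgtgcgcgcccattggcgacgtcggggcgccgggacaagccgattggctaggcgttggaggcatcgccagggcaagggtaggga
Pdk3: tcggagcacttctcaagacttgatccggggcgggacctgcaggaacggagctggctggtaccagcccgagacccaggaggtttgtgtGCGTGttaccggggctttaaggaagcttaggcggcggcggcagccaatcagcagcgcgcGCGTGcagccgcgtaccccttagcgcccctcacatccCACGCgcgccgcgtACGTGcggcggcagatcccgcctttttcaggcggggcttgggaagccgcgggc
The windows lie at chr2:71872974-71873223 on the forward strand, chr11:95041372-95041621 on the reverse strand and chrX:93832151-93832400 on the reverse strand. Pdk1, which fell furthest, had 1 match, 78 bases before the start. Pdk2 had 2 matches that overlap in the palindrome CACGTG, which is also the core of the E-box. Pdk3, which did not pass, had 4 matches. At least 1 match stood in 38.6% of 32851 windows, and 2.58% of all windows had at least 4. By gene, 41.5% of 27025 mouse genes had a match, as did 21 of the 29 members that the table holds. A gene can have more than 1 window. Pdk1 and Pdk2 have 2 starts each and Pdk3 has 1, and 1 window is shown for each, so the share of windows is the closer background. Whether these matches bear on how far the 3 genes moved was not tested, and a match shows letters only, not binding.

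**Figure D2:**
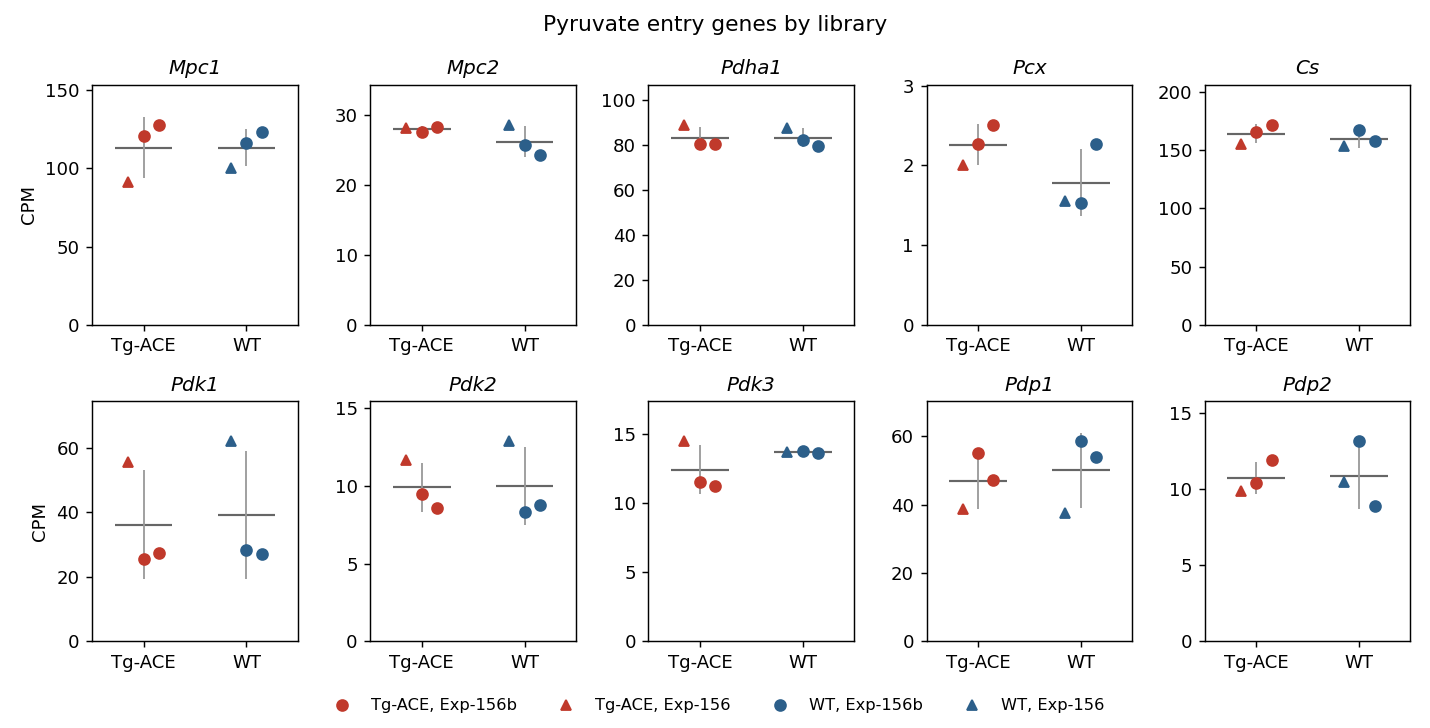
Level in CPM of 10 genes of pyruvate entry in each library, 1 panel a gene with its own axis from 0, circles for Exp-156b and triangles for Exp-156, and grey lines for the mean and SD of the 3 libraries of a genotype. Pdk1 and Pdk2 are higher in the replicate 1 library of both genotypes and Pdp1 and Mpc1 lower, and no panel separates Tg-ACE from WT.

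Of the 3 phosphatase genes 1 rose, where 20% of all genes rose. Pdp1, a catalytic subunit that reactivates pyruvate dehydrogenase, stood at 55.2 and 47.3 CPM in the Tg-ACE and 58.5 and 54.1 CPM in the WT libraries of Exp-156b, against 38.8 CPM in the Tg-ACE and 37.6 CPM in the WT library of Exp-156. Every Exp-156b library was above both Exp-156 libraries, with a log2 fold change of 0.49 (SE 0.09, adjusted p = 0.00415 in edgeR), a call that was lost without WT replicate 1. Between genotypes its log2 fold change was -0.09 (unadjusted p = 0.681, adjusted p = 1). Pdp2, the other catalytic subunit, stood at 9.88, 10.4 and 11.9 CPM in Tg-ACE replicates 1, 2 and 3 and at 10.5, 13.1 and 8.90 CPM in WT replicates 1, 2 and 3. Its highest and lowest values were both in WT libraries of Exp-156b, so neither genotype nor code ordered it (code adjusted p = 0.575 in edgeR). Pdpr, the regulatory subunit, ran from 16.98 to 20.4 CPM over all 6 libraries and did not pass either comparison.

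Kinase and phosphatase levels thus stood in a different proportion in the codes. Per kilobase of exon, the summed level of the 3 kinases was 0.767 and 0.844 times that of Pdp1 and Pdp2 in the Tg-ACE and 0.759 and 0.855 times in the WT libraries of Exp-156b, against 1.59 times in the Tg-ACE and 1.71 times in the WT library of Exp-156. Against Pdha1, which encodes the subunit that the kinases phosphorylate, the kinase sum was 0.501 and 0.494 in the Tg-ACE and 0.526 and 0.545 in the WT libraries of Exp-156b, and 0.692 in the Tg-ACE and 0.740 in the WT library of Exp-156. The Exp-156 libraries were highest in both ratios, and over all 6 libraries the genotypes overlapped in both. Within each code, however, the ratio to Pdha1 was lower in the Tg-ACE than in the WT libraries, a difference that was not tested. The ratio to the phosphatases overlapped between genotypes within Exp-156b. With the longest transcript as the length, the kinase to phosphatase ratio was 0.962 to 1.08 in Exp-156b, against 2.07 in the Tg-ACE and 2.24 in the WT library of Exp-156, so its place above or below 1 in Exp-156b depends on the length used. Pdk1 made up 30.4% and 33.2% of the kinase sum in the Tg-ACE and 31.2% and 30.1% in the WT libraries of Exp-156b, and 43.4% in the Tg-ACE and 45.8% in the WT library of Exp-156.

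**Figure D3:**
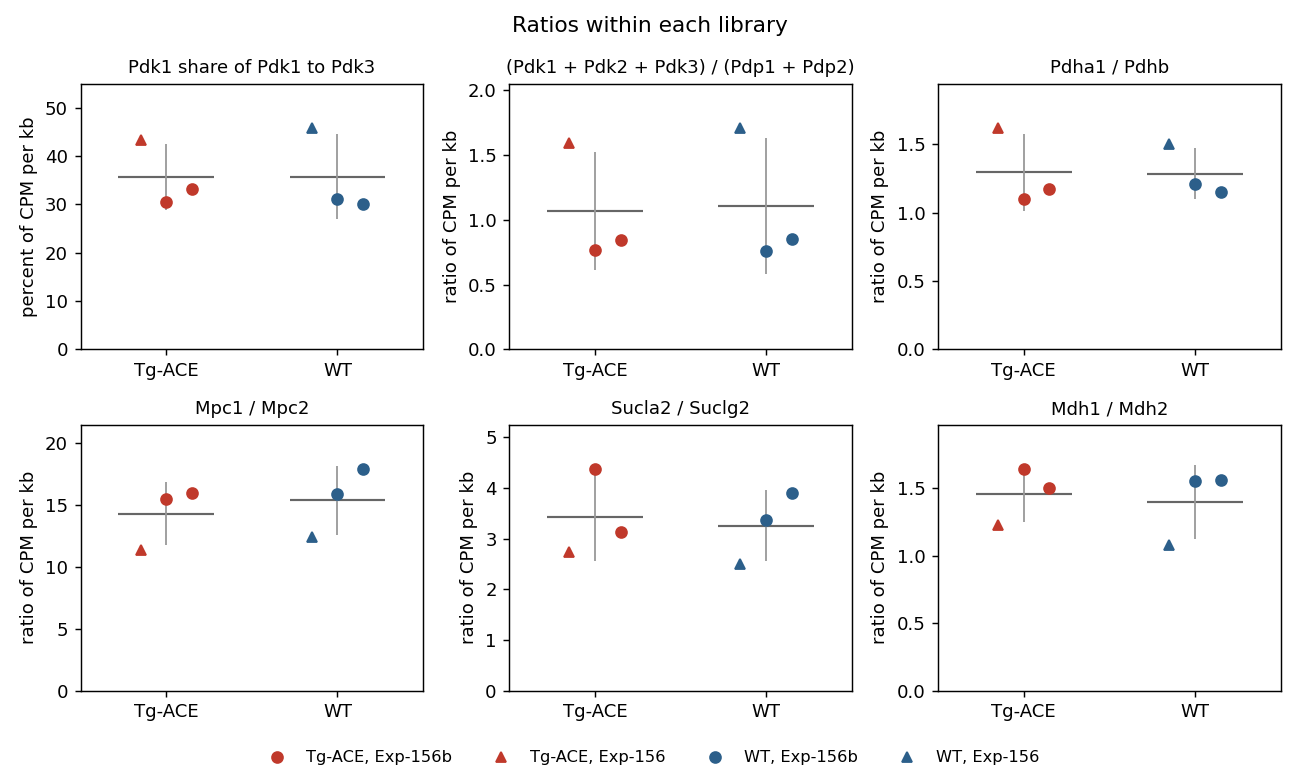
Ratios of levels per kilobase of exon in each library, 1 panel a ratio, with circles for Exp-156b, triangles for Exp-156, and grey lines for the mean and SD of the 3 libraries of a genotype. The kinase to phosphatase ratio is 1.59 and 1.71 in the replicate 1 libraries of Tg-ACE and WT and 0.759 to 0.855 in the other 4. No ratio separates Tg-ACE from WT over all 6 libraries.

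The pyruvate carrier is a dimer of the Mpc1 and Mpc2 proteins, and its genes behaved differently between codes. Mpc1 stood at 121 and 128 CPM in the Tg-ACE and 116 and 123 CPM in the WT libraries of Exp-156b, against 91.2 CPM in the Tg-ACE and 100.2 CPM in the WT library of Exp-156. It was higher in every Exp-156b library (log2 fold change 0.35, SE 0.07, adjusted p = 0.00761 in edgeR), a call that was lost without Tg-ACE replicate 1, and its genotype log2 fold change was 0.00 (unadjusted p = 0.991, adjusted p = 1). Mpc2 stood at 28.2, 27.6 and 28.2 CPM in Tg-ACE replicates 1, 2 and 3, against 28.6, 25.7 and 24.2 CPM in WT replicates 1, 2 and 3. WT replicate 1 was the highest library and WT replicates 2 and 3 the lowest, so the genotypes overlapped (log2 fold change 0.10, SE 0.10, unadjusted p = 0.353, adjusted p = 1 in edgeR). Mpc2 did not pass between codes (adjusted p = 0.303).

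Within the pyruvate dehydrogenase complex 3 of the 5 genes rose in Exp-156b and none fell, where 20% of all genes rose and 22.9% fell. Pdhb, the partner of Pdha1 in the decarboxylating enzyme, had a log2 fold change of 0.30 (SE 0.07, adjusted p = 0.0120 in edgeR). Pdhx, which tethers the lipoamide dehydrogenase to the core, also had 0.30 (SE 0.09, adjusted p = 0.0330), and Dld, that dehydrogenase, had 0.26 (SE 0.07, adjusted p = 0.0250). These calls rested on few libraries: Pdhb was lost without Tg-ACE replicate 1, Pdhx without Tg-ACE replicate 3 or any 1 of the WT libraries, and Dld without Tg-ACE replicate 1 or 2 or any 1 of the WT libraries. Pdha1 stood at 89.0, 80.4 and 80.3 CPM in Tg-ACE replicates 1, 2 and 3 and at 87.7, 82.4 and 79.4 CPM in WT replicates 1, 2 and 3. It was highest in the 2 Exp-156 libraries without passing (log2 fold change -0.13, adjusted p = 0.118 in edgeR), and its genotype log2 fold change was 0.00 (unadjusted p = 0.996, adjusted p = 1). Pdha1 shares 603 exon bases with Map3k15 on the opposite strand, and Map3k15 held 1707 counts against 12962 for Pdha1 over all libraries. Dlat, the acetyltransferase core, ran from 38.1 to 43.6 CPM and did not pass. Pdha1, Pdk3 and Idh3g lie on the X chromosome, and 0 of these 3 passed between the codes, where 42.9% of all genes did. Pdha1 was nevertheless lower in all 4 Exp-156b libraries than in both Exp-156 libraries.

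Of the 7 genes grouped from citrate synthase to 2-oxoglutarate, cytosolic enzymes included, 2 fell in Exp-156b and none rose. Over all genes 22.9% fell and 20% rose. The 2 were Aco1 and Idh2, neither of which encodes the NAD-dependent enzyme of the cycle, and Cs did not pass (adjusted p = 0.231 in edgeR). Aco1, cytosolic aconitase, which also acts as an iron regulatory protein, stood at 89.1 and 84.8 CPM in the Tg-ACE and 80.5 and 82.5 CPM in the WT libraries of Exp-156b, against 116 CPM in the Tg-ACE and 105 CPM in the WT library of Exp-156. The codes did not overlap (log2 fold change -0.39, SE 0.06, adjusted p = 0.00207 in edgeR). Within each code the Tg-ACE libraries were above the WT libraries, but over all 6 the genotypes overlapped, with an unadjusted p of 0.108 (adjusted p = 0.791 in edgeR) with the code in the model. Idh2, the mitochondrial NADP-dependent isocitrate dehydrogenase, stood at 54.1 and 62.0 CPM in the Tg-ACE and 52.6 and 61.5 CPM in the WT libraries of Exp-156b, against 71.4 CPM in the Tg-ACE and 72.6 CPM in the WT library of Exp-156. All 4 were below both others (log2 fold change -0.32, SE 0.09, adjusted p = 0.0222 in edgeR), a call lost without replicate 1 of either genotype, without Tg-ACE replicate 2 and with upper-quartile scaling. Idh1, its cytosolic and peroxisomal counterpart, ran from 227 to 308 CPM and had -0.25 on the log2 scale without passing (adjusted p = 0.0728). The NAD-dependent enzyme of the cycle itself, encoded by Idh3a, Idh3b and Idh3g, did not pass in any subunit, with log2 fold changes between codes of 0.13, 0.11 and -0.07, though Idh3a passed with upper-quartile scaling (0.21, adjusted p = 0.0377 in edgeR).

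From 2-oxoglutarate to oxaloacetate 1 of 7 genes rose and none fell, where 20% of all genes rose and 22.9% fell. Suclg1, the alpha subunit that both succinyl-CoA ligases share, stood at 62.1 and 68.7 CPM in the Tg-ACE and 66.8 and 64.7 CPM in the WT libraries of Exp-156b, against 51.8 CPM in the Tg-ACE and 49.3 CPM in the WT library of Exp-156. The codes did not overlap (log2 fold change 0.38, SE 0.07, adjusted p = 0.00490 in edgeR). The beta subunits, which set whether the ligase makes ATP or GTP, had 0.18 (Sucla2, ATP-forming, adjusted p = 0.0690) and -0.30 (Suclg2, GTP-forming, adjusted p = 0.0800), and neither passed. Ogdh, Dlst, Fh1 and Mdh2 did not pass between codes either, with log2 fold changes from -0.09 to 0.26. Mdh2, the mitochondrial malate dehydrogenase, had the smallest interaction p of the 31, at 0.0598 (adjusted p = 0.660 in edgeR), with 146 and 160.4 CPM in Tg-ACE against 135 and 145 CPM in WT within Exp-156b, and 145 CPM in Tg-ACE against 165 CPM in WT within Exp-156. Mpc2, Pdk3, Pdpr and Mdh2 were the members in which all libraries differed by genotype in opposite directions in the 2 codes, and 0 of the 31 passed the interaction test, where 0% of all genes passed. At an unadjusted p under 0.05 the interaction count was 0 of 31, against 7.65% of all genes.

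All 3 genes that link the cycle to cytosolic malate and aspartate rose in Exp-156b, where 20% of all genes rose. Got1, the cytosolic aspartate transaminase (chromosome 19, 43499752 to 43524605, reverse strand), had the largest rise of the 31. It stood at 86.8 and 81.9 CPM in the Tg-ACE and 85.0 and 77.0 CPM in the WT libraries of Exp-156b, against 59.3 CPM in the Tg-ACE and 56.3 CPM in the WT library of Exp-156. The log2 fold change was 0.52 (SE 0.07, adjusted p = 0.00124 in edgeR), 1.43 times the Exp-156 level, with no overlap. Got2, its mitochondrial counterpart, stood at 104 and 112 CPM in the Tg-ACE and 108 and 103 CPM in the WT libraries of Exp-156b, against 85.8 CPM in the Tg-ACE and 78.6 CPM in the WT library of Exp-156. Mdh1, cytosolic malate dehydrogenase, stood at 173 and 173 CPM in the Tg-ACE and 150.4 and 162 CPM in the WT libraries of Exp-156b, against 128 CPM in the Tg-ACE and 128 CPM in the WT library of Exp-156. Both were higher in every Exp-156b library, with log2 fold changes of 0.38 (SE 0.07, adjusted p = 0.00376) for Got2 and 0.36 (SE 0.07, adjusted p = 0.00552) for Mdh1 in edgeR, and the Mdh1 call was lost without Tg-ACE replicate 1. Between genotypes the 3 log2 fold changes were 0.06, 0.06 and 0.11, and none passed.

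**Figure D4:**
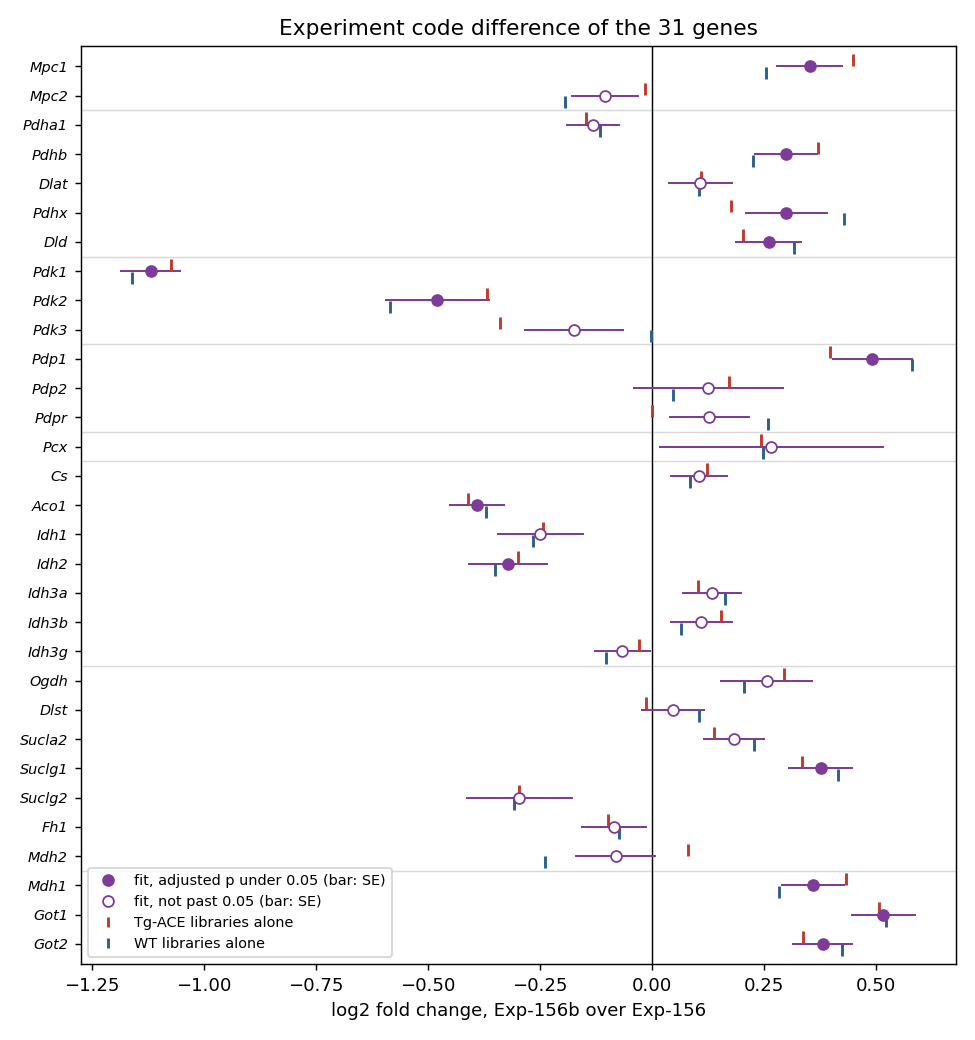
Log2 fold change of Exp-156b over Exp-156 for each of the 31 genes (horizontal axis), ordered by role, with lines for 1 SE either side, filled markers for the 13 genes that passed in edgeR, and ticks for the Tg-ACE (red) and WT (blue) libraries alone. Pdk1 lies apart at -1.12, and the 9 genes that rose lie between 0.26 and 0.52.

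Spread between libraries differed among the 31 genes, and 6 had a coefficient of variation over 15%, with Pdk1 highest at 43.9%. The median coefficient of variation of the CPM was 11.9% over the 6 libraries and 4.79% over the 4 Exp-156b libraries, and in 26 of 31 genes the highest library was less than 1.5 times the lowest. The summed level was 2247, 2410 and 2355 CPM in Tg-ACE replicates 1, 2 and 3, against 2254, 2304 and 2329 CPM in WT replicates 1, 2 and 3. Per kilobase of exon, levels differed widely between genes. Idh1 was highest at 96.7 ± 11.5 CPM per kilobase (SD, n = 6), followed by Mdh1 at 59.5 ± 8.05 and Mpc1 at 54.4 ± 6.93. Mdh1 and Mpc1 both rose in Exp-156b, so their SDs include the shift between codes and cannot decide their order within a library. Pcx was lowest at 0.425 ± 0.0853 and Pdp2 next at 1.90 ± 0.266 CPM per kilobase. Divided by the longest transcript instead, the first 3 places went to Mpc1, Idh1 and Mdh2, and Pcx and Pdp2 stayed last.

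Several paired genes differed in proportion. Per kilobase of exon, Sucla2 held 4.37 and 3.14 times the level of Suclg2 in the Tg-ACE and 3.37 and 3.90 times in the WT libraries of Exp-156b, against 2.74 times in the Tg-ACE and 2.5 times in the WT library of Exp-156. The ATP-forming subunit was thus above the GTP-forming one in every library. Idh1 was 3.41 to 4.97 times Idh2 over the 6 libraries, and Mpc1 was 11.4 to 17.9 times Mpc2. Mdh1 was 1.08 to 1.64 times Mdh2 and Got1 1.31 to 1.58 times Got2, but both orders turned with the longest transcript as the length, so no order is given for these pairs.

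Of the other genes of the pathway, 39 were listed, 37 found and 34 tested. Between genotypes 0 of 34 were called in edgeR, where 0% of all genes were called. The log2 fold change was above 0 for 23 and below 0 for 11, with a median of 0.04. At an unadjusted p under 0.05 there was 1 of 34, against 0.982% of all genes. It was Lipt2, the octanoyltransferase that begins the lipoylation needed by pyruvate and 2-oxoglutarate dehydrogenases. Lipt2 stood at 5.34, 5.78 and 5.47 CPM in the Tg-ACE libraries, against 3.60, 4.15 and 3.78 CPM in the WT libraries. It was the only 1 of the 34 whose genotypes did not overlap (log2 fold change 0.52, SE 0.16, unadjusted p = 0.0157, adjusted p = 1 in edgeR). Over all genes 4.91% did not overlap.

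Between codes 8 of the 34 rose in Exp-156b and 8 fell, with a median of 0.12, where 20% of all genes rose and 22.9% fell. The genes that rose include Me1 (2.34 on the log2 scale), Pck2 (1.07), Ldhb (1.03), Slc16a1 (0.88), Slc25a10 (0.65), Sdhaf1 (0.46) and Oxct1 (0.28). Me1 encodes cytosolic malic enzyme, Pck2 the mitochondrial form of phosphoenolpyruvate carboxykinase and Ldhb the heart-type lactate dehydrogenase subunit. The genes that fell include Slc16a3 (-1.80), Acss1 (-0.92), Ldha (-0.82), D2hgdh (-0.59), Acly (-0.28), Glud1 (-0.25) and Me2 (-0.19). Ldha, the muscle-type lactate dehydrogenase subunit, stood at 595 and 668 CPM in the Tg-ACE and 549 and 519.8 CPM in the WT libraries of Exp-156b, against 1041 CPM in the Tg-ACE and 1012 CPM in the WT library of Exp-156. Slc16a3, a lactate exporter, stood at 34.5 and 41.1 CPM in the Tg-ACE and 36.2 and 31.9 CPM in the WT libraries of Exp-156b, against 111 CPM in the Tg-ACE and 141 CPM in the WT library of Exp-156. Pdk1, Ldha and Slc16a3 were thus all lower in each Exp-156b library, while Ldhb (1.03) and Slc16a1 (0.88) rose. Ldha and Slc16a3 were picked out after their values were seen.

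Other gene groups moved between the codes as well, against a background of 20% of all genes rising and 22.9% falling, and their part in the differences above was not tested. Of 50 nuclear genes of oxidative phosphorylation 22 rose in Exp-156b and none fell (median 0.22), and of 13 mitochondrially encoded genes 6 rose and none fell (median 0.73). Of 17 glycolytic genes 3 rose and 8 fell (median -0.02), of 42 cytosolic ribosomal protein genes 20 rose and none fell (median 0.25), and of 13 immediate early and heat shock genes 1 rose and 8 fell (median -0.88). Macrophage markers, Adgre1, Itgam, Fcgr1 and Csf1r among them, showed 5 falls and no rise over 8 rows, at summed levels of 17980 to 18060 CPM in the Tg-ACE and 18350 to 21910 CPM in the WT libraries of Exp-156b, against 21320 CPM in the Tg-ACE and 21460 CPM in the WT library of Exp-156. Csf1r, the growth factor receptor of the lineage, stood at 547 to 794 CPM over the 6 libraries. Neutrophil markers summed to 17.8 to 19.1 CPM in the Tg-ACE and 16.5 to 18.4 CPM in the WT libraries of Exp-156b. They summed to 162.5 CPM in the Tg-ACE and 493 CPM in the WT library of Exp-156. Ly6g and Camp among them were at or near 0. Eosinophil markers summed to 12.9 to 13.7 CPM in Tg-ACE and 8.66 to 18.4 CPM in WT libraries of Exp-156b, against 88.4 CPM in the Tg-ACE and 223 CPM in the WT library of Exp-156. Mast cell markers (12.5 to 26.1 against 56.1 to 89.1 CPM), large peritoneal macrophage markers (23.9 to 32.3 against 141 to 212 CPM, with 5 of 6 falling and Gata6 rising), dendritic cell markers (5.14 to 9.66 against 29.9 to 34.3 CPM) and T and NK cell markers (2.84 to 4.69 against 9.63 to 13.4 CPM) were also lower in the Exp-156b libraries than in the Exp-156 libraries. Mesothelial and fibroblast markers summed to 266 to 558 CPM in Exp-156b and 219 to 237 CPM in Exp-156, with 4 rises and 1 fall among 7 tested, while 0 of 6 B cell markers passed. In bulk RNA, fewer cells of a type and less RNA per cell cannot be told apart.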

How the data were processed

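Poly-A RNA of peritoneal macrophages had been made into stranded libraries and read from 1 end for 75 bases, at a mean of about 20 M reads, per the labels' protocols. The file that the authors deposited gives expected counts per gene in 6 columns, with no normalization. The submitters' processing notes name STAR 2.5.0, RSEM 1.2.25, mm10 and GRCh38 without their roles. Whether the counting used strand was not given in the sources used here. In each library 11.0% to 11.4% of the values were not whole, and all were rounded. The 92 ERCC rows, with 1 count in all, were left out.

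Genes were tested in edgeR 4.0.16 (R 4.3.3) with TMM scaling, the filterByExpr filter (12827 genes) and the quasi-likelihood test, with Benjamini-Hochberg adjustment at 0.05. The filter went by genotype, so genes with counts only in the 2 Exp-156 libraries were not tested, and shares of all genes leave them out. Of the markers, 4 of 7 neutrophil and 1 of 5 eosinophil genes were tested, while the summed levels hold all of them. The genotype fit had genotype alone, the code fit had genotype and experiment code. Standard errors were derived from log2 fold changes and their F statistics, and CPM values use TMM-scaled library sizes. Levels between genes were divided by union exon length in GENCODE vM21 (GRCm38). Detection was set at 3 counts, 0.107 to 0.123 CPM, and this limit covers counting error only. No 2 libraries agreed within counting noise (lowest mean chi-square of a pair 13.4 per gene), so none were merged, which does not show that they came from separate mice. Groups came from the sample titles; the series' design text says Tg-NKO where the sample labels say Tg-ACE.

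Same-numbered replicates deviated together (correlations 0.856, 0.483 and 0.637), but once the code was taken out those of replicates 2 and 3 were -0.178 and -0.101, so the pairing goes with the codes. Alternatives were DESeq2 1.42.0, limma-voom (limma 3.58.1), other scalings and filters, the code as a term, the replicate block and leaving out each library. The comparison of codes within 1 genotype and the interaction without single Exp-156b libraries were chosen after seeing the data.

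The members and gene lists were chosen with earlier results of these data known. Values are given for each library for the 5 members with the smallest genotype p, up to 5 called with the largest rise and 5 with the largest fall between codes, and Mpc1, Mpc2, Pdha1, the kinases, Pdp1, Pdp2, Pcx and Cs. Mdh2, Ldha, Slc16a3 and Lipt2 were added, Mdh2, Ldha and Slc16a3 after their values were seen. Acod1 and Mpc1l were not analysed here. Exons of Mdh1, Idh3b and Pdha1 overlap genes on the opposite strand. Single values of some genes of the pathway list are not reported here.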

Additional observations from a re-analysis of the deposited data

Results flagged for a closer look

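Pdhb stood out among the 4 Exp-156b libraries. Tg-ACE replicate 2 held 75.9 CPM, against 70.8 CPM in Tg-ACE replicate 3 and 70.4 and 71.2 CPM in the WT libraries. Its gap to the nearest library was 0.857 of the whole range, above the 95% limit for 4 values. The 31 members were each checked in this way, and chance passes this limit in about 1 of 20 groups.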

How the results depend on the processing

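Between Tg-ACE and WT no member was called in any fit run. Over all genes, edgeR's 0 calls became 1 without a filter, 9 with DESeq2, 1 with limma-voom, 2 with the code as a term and 2 in Exp-156b alone. With the replicate number as a replicate block 2 genes were called and again no member, and the pairing changed no member's call. Leaving out single libraries gave 0 to 3 calls, with or without the code. The interaction gave 13 calls over all genes with DESeq2, and 0 to 16 without single Exp-156b libraries, the 16 without WT replicate 3.

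Of the 13 members called between codes, 7 passed in the Tg-ACE libraries alone and 7 in the WT libraries alone, and 8 to 13 members passed without single libraries. Over all genes the calls were 3298 in Tg-ACE alone, 3229 in WT alone and 3430 to 5028 without single libraries. The members' median was 0.1873 with upper-quartile scaling and 0.1045 to 0.1329 without single libraries.

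Signs turned only in values that were not called, and the cause was not tested. Between genotypes Mpc1 gave -0.0059 in limma-voom, -0.0075 with the code and -0.0076 with the block. Pdha1 gave -0.0004, -0.0002 and -0.0001 in these fits and -0.0105 in Exp-156b alone. Pdk2 gave 0.0237, 0.0014, 0.0007 and 0.0779 in these 4, and 0.0109 with upper-quartile scaling. Pdp2 gave 0.0105 with that scaling and 0.0153 in Exp-156b alone, and Suclg1 gave -0.0081 in Exp-156b alone. Among the 18 members that the naming rule takes, the ranges without single libraries crossed 0 for Mpc1 (-0.0908 to 0.1366), Pdha1 (-0.0503 to 0.0404), Pdk1 (-0.5635 to 0.3877), Pdk2 (-0.1457 to 0.2114), Pdp1 (-0.2579 to 0.0391), Pdp2 (-0.1731 to 0.1475), Aco1 (-0.0406 to 0.2441), Idh2 (-0.101 to 0.1318), Suclg1 (-0.1118 to 0.1178), Got1 (-0.0913 to 0.2133) and Got2 (-0.0651 to 0.1668). Of the other 13 members 11 also crossed 0, within -0.1677 to 0.1996. Between codes Mpc2 gave 0.0006 and Mdh2 0.0962 in the Tg-ACE libraries alone, Pdk3 0.0001 in the WT libraries alone, and Idh3g 0.0116 with upper-quartile scaling. Without single libraries Dlst ran from -0.0107 to 0.1045 and Mdh2 from -0.2381 to 0.0806.

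With the longest transcript as the length, the mean ratio was 4.35 for Sucla2 over Suclg2, 0.778 for Mdh1 over Mdh2, 0.923 for Got1 over Got2, 0.257 for Idh3a over Idh3b, 0.648 for Idh3g over Idh3b, 3.38 for Idh1 over Idh2, 1.04 for Pdha1 over Pdhb and 17.6 for Mpc1 over Mpc2. Depth limited Pcx most, at 38 counts in its lowest library. With 3 libraries a genotype, and only 2 in Exp-156, leaving out an Exp-156 library leaves 1 library to stand for that code, which is assumed to vary like the others.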
